A study of Mus musculus with 8 samples.

Results

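Vps13b, Cnrip1, Phf14, Tpsg1 and Tmem273 are 5 protein-coding mouse genes whose listed cytosines had very high RNA methylation levels in mast cells lacking Tet2. They were chosen because the mean level of their sites over the Tet2-deficient libraries was 75% or more. Of the 53 genes with 10 or more listed sites, 7 (13.2%) passed that level; the other 2, Rab27b and Anapc10, hold many more sites and serve here for comparison only. The members hold 141 of the 8492 listed sites (1.66%): 21 in Vps13b, 51 in Cnrip1, 38 in Phf14, 20 in Tpsg1 and 11 in Tmem273. Their spans run from 5.25 kb for Tpsg1 to 560 kb for Vps13b, and 4 of the 5 are longer than the median protein-coding span of 17.1 kb. Each also holds more sites than the median of 8 over the 110 gene spans with listed sites. None of the 5 is thus small in its number of sites, and only Tpsg1 is shorter than the median span. Because the levels chose the genes, all levels below are descriptions and none carries a test.

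The RNA was polyadenylated RNA from mast cells that had been grown out of C57BL/6 bone marrow with IL-3 and SCF and stained for FcεRI and c-Kit. The labels describe 8 libraries, of which 4 are wild type and 4 carry the genotype Tet2-/-, in each case 2 biological replicates with 2 technical replicates each. The labels do not say how the Tet2 allele was made or whether marrow of several animals was pooled. The table used here covers the 4 Tet2-/- libraries and sites that its title calls specific to them. Levels in wild-type cells were not analysed here, and no value below compares genotypes. A site's level is the fraction of its reads with cytosine retained after bisulfite treatment, and unmodified cytosine that escaped conversion would count in it too. Read numbers were not analysed, and the depth of each site is unknown. Errors are the SD of 2 biological replicates after averaging technical ones. The number after K in the column names was taken as the biological replicate. The values do not settle whether the number after rep is meant instead, and all SDs and replicate gaps below depend on this reading. Where 4 values stand in a row, they are replicate 1 technical 1, replicate 1 technical 2, replicate 2 technical 1 and replicate 2 technical 2. The table holds no expression values, so cell identity could not be checked by marker levels; 2 of 10 mast cell markers, Cpa3 and Il1rl1, have listed sites, as do 0.438% of protein-coding genes, which says nothing of their expression.

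As background, 5-methylcytosine in RNA is written by methyltransferases such as those of the NSUN family, and TET enzymes can oxidise it. Bisulfite converts unmethylated cytosine to uracil and leaves the methylated base in place, so a retained cytosine is read as methylation. The 5 genes are not known to form a pathway. VPS13B is a very large Golgi protein of the bridge-like lipid transfer family, mutated in Cohen syndrome. CNRIP1 binds the tail of the cannabinoid receptor CB1. PHF14 is a nuclear protein with PHD fingers, a fold that reads histone tails. TPSG1 is gamma tryptase, a membrane-anchored serine protease of mast cells. TMEM273 is a small transmembrane protein of little known function.

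Vps13b and the non-member Rab27b had the highest levels of the 53 genes and lay 0.775 points apart, less than the SD of either, with Rab27b higher in 2 of the 4 libraries. The library means of Vps13b were 90.8%, 90.5%, 89.7% and 95.2%, a mean of 91.6% ± 1.30 (SD, n = 2). Its lowest library stood above the highest library of each of the other 4 members. Cnrip1 came next among the members, with 88.1%, 81.8%, 85.1% and 82.8% and a mean of 84.5% ± 0.692 (SD, n = 2). Tpsg1 followed with 86.2%, 81.3%, 74.6% and 80.3%, a mean of 80.6% ± 4.47 (SD, n = 2). Cnrip1 and Tpsg1 differed by 3.87 points, less than the SD of Tpsg1. Phf14 had 81.5%, 70.2%, 77.0% and 83.5%, a mean of 78.0% ± 3.09 (SD, n = 2). Tmem273 had 73.0%, 72.3%, 82.1% and 79.6%, a mean of 76.7% ± 5.78 (SD, n = 2). Tpsg1, Phf14 and Tmem273 lay within 3.84 points of each other and their libraries overlapped. Under the reading used here their order is thus not larger than the spread between replicates. Under the other reading the SD was 0.647 in Rab27b and 1.84 in Vps13b, so the 0.775 points exceeded that of Rab27b. It was 3.04 in Cnrip1, 0.280 in Tpsg1, 1.67 in Phf14 and 1.13 in Tmem273. The 3.87 points and the 3.84 points (Tpsg1 and Tmem273) then exceeded the SDs of both genes compared. The mean of the 5 genes was 82.3% ± 1.00, against 51.7% ± 0.154 for all listed sites (SD, n = 2 for both), a gap that the choice of the genes fixes. On either side of the threshold of 75% stood Tmem273 and the non-member Pign, with 87 sites at 70.3%.

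**Figure D1:**
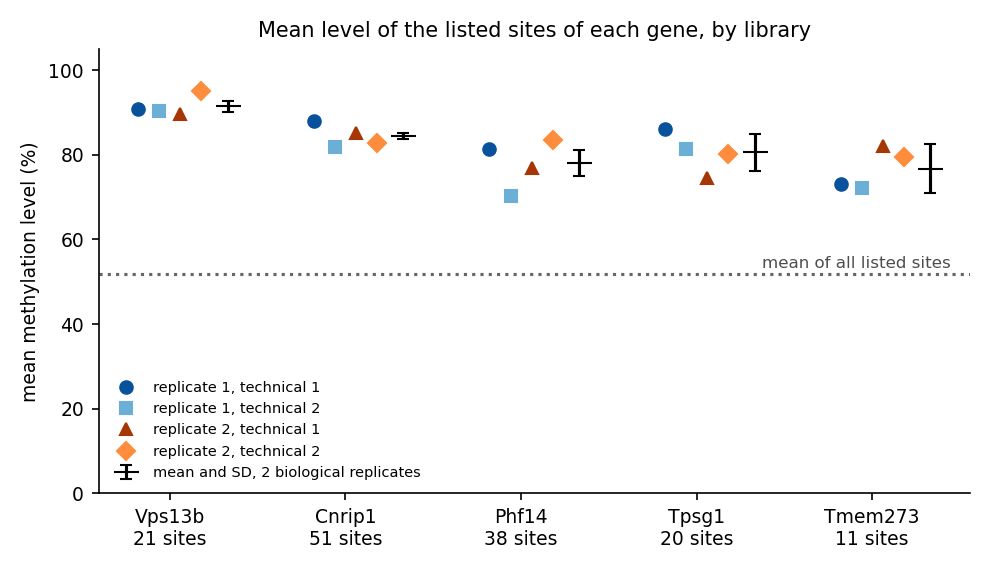
Mean methylation level in percent (vertical axis) of the listed sites of each gene (horizontal axis); coloured points are the 4 Tet2-deficient libraries and the black tick and bar are the mean and SD of 2 biological replicates. Vps13b at 91.6% stands clear of the other genes, which run from 84.5% to 76.7% with overlapping libraries; the dotted line is the mean of all listed sites, 51.7%.

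Most member sites were high in every library. At 72 of the 141 sites (51.1%) all 4 libraries read 75% or more, against 11.8% of all listed sites, and nothing is read from that contrast because the rule used these levels. The count was 18 of 21 in Vps13b, 28 of 51 in Cnrip1, 12 of 20 in Tpsg1, 6 of 11 in Tmem273 and only 8 of 38 in Phf14. Phf14 thus reached its mean with few sites that were high throughout. Its replicate 1 technical 2 library had a mean of 70.2%, under that level, and its other libraries had means of 77.0% or more. A level of 90% or more in every library was found at 27 member sites, against 2.43% of all listed sites. All 4 libraries read 100% at 21 member sites, against 0.836% of all listed sites. Of these, 10 lay in Cnrip1, 9 in Vps13b and 2 in Phf14, and Tpsg1 and Tmem273 had 0. The site means ran from 28.7% to 100%, with a median of 85.9%, and 5 of the 141 were under 50%.

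The sites were confined to a few short stretches of each gene. With a joining distance of 500 bases they formed 8 regions that cover 1530 bases, and with one of 50 bases 13 stretches that cover 604 bases. Another listed site lay within 10 bases of 139 of the 141 sites, and of 93.7% of all listed sites. None of the 141 sites lay in a second gene span. Exons, introns and untranslated regions were not analysed here, so it is not known which sites lie in mature mRNA. RefSeq promoter windows of GRCm38.p6, from 250 bases before a start site to 50 after it, were given for every member but Vps13b. Of the 120 sites of the other 4 genes, 0 fell in their 6 windows; over the table, 0.0236% of sites fell in a window of any gene. The genome sequence around the sites was not used here, and no sequence is printed for them.

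Vps13b, which spans 35371118 to 35931229 on chromosome 15 of GRCm38, had all 21 sites between 2.13% and 4.24% of its length from the lower coordinate. The first stretch, 6 sites from 35383064 to 35383073, stood at 93.3%, 96.7%, 82.8% and 100% in the 4 libraries. The replicate 2 libraries were there both the lowest and the highest. The second stretch, 3 sites from 35394332 to 35394336, read 100% in every library. The third, 12 sites from 35394786 to 35394839, had a mean of 88.6% ± 3.56 (SD, n = 2) and a notch in its middle. At 35394800 the libraries read 40%, 40%, 62.5% and 71.4%, the lowest mean of the gene (53.5% ± 19.1, SD, n = 2) and also its widest gap between biological replicates. Both replicate 2 libraries were above both replicate 1 libraries at that site. The listed site 6 bases before it, 35394794, and the one 26 bases after it, 35394826, read 100% in every library. The largest difference between neighbouring sites of this gene was thus found across those 6 bases. The first site of the gene, 35383064, read 80%, 80%, 80% and 100%, and the last, 35394839, read 83.3% and then 100% in the other 3 libraries.

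Cnrip1 spans 17051859 to 17079372 on chromosome 11 and had 2 regions of unlike level. The region from 17057865 to 17058189, with 24 sites, stood at 77.6%, 67.6%, 74.5% and 72.3%, a mean of 73.0% ± 0.561 (SD, n = 2). The region from 17073711 to 17073813, with 27 sites, stood at 97.4%, 94.4%, 94.6% and 92.1%, a mean of 94.6% ± 1.81 (SD, n = 2). Every library of the second region lay above every library of the first. All 10 of the sites at 100% in every library were in the second region, starting at 17073721, and 24 of its 27 sites were at 75% or more in every library, against 4 of 24 in the first. The first region alone would have fallen short of the level that chose the gene.

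Within the first region of Cnrip1 the difference between the biological replicates changed sign from stretch to stretch, under the reading of the column names used here. In its first stretch, 9 sites from 17057865 to 17057955, the libraries stood at 79.7%, 80.4%, 58.8% and 58.9%. Replicate 1 was higher at all 9 sites, and at 7 of them both of its libraries lay above both of the other replicate. The next stretch, 14 sites from 17058051 to 17058126, had 77.4%, 61.4%, 84.0% and 79.8%. Here replicate 2 had the higher mean at all 14 sites, and both of its libraries lay above both of replicate 1 at 2 of them. The lone site 17058189, 63 bases further on, read 60%, 40%, 83.3% and 87.5%, and had the widest replicate gap of the gene, -35.4 points (replicate 1 minus replicate 2). The lowest site was 17057874, at 60%, 66.7%, 28.6% and 30%, a mean of 46.3% ± 24.1 (SD, n = 2). The first site of the gene, 17057865, read 70%, 66.7%, 37.5% and 33.3%. If the number after rep marked the biological replicate instead, the first stretch would stand at 69.2% and 69.7% and the next at 80.7% and 70.6%, so the gap in the first stretch, and with it this pattern, depends on the reading. The values do not settle which reading holds. The last site, 17073813, read 100% in 3 libraries and 88.9% in replicate 2 technical 2.

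Phf14 spans 11907725 to 12100156 on chromosome 6, and its 38 sites lay within 2000 bases, between 38.4% and 39.4% of the span from its start. Its 4 stretches differed widely. The first, 12 sites from 11981594 to 11981663, had 64.1%, 79.2%, 58.6% and 76.8%, with the second technical library the higher one in both replicates. The second, 6 sites from 11983140 to 11983151, read 100%, 93.3%, 94.9% and 100%, a mean of 97.1% ± 0.544 (SD, n = 2), and held the 2 sites at 100% in every library, 11983140 and its direct neighbour. The third, 13 sites from 11983420 to 11983511, had 78.9%, 64.5%, 85.7% and 86.7%; replicate 2 had the higher mean at 12 of the 13 sites. Its site means ranged from 96.4% to 37.9% at 11983495, the lowest of the gene, which read 28.6%, 40%, 42.9% and 40%. The fourth, 7 sites from 11983564 to 11983593, had 100%, 45.7%, 77.0% and 74.8%. There the technical replicates of replicate 1 stood at the 2 extremes, and the biological means of 72.9% and 75.9% lay between them. If the number after rep marked the biological replicate instead, the biological means there would be 88.5% and 60.3%. In the first stretch they would be 61.4% and 78.0%, in place of 71.7% and 67.7%. How near the biological replicates stood in these stretches thus depends on the reading. The widest gap of replicates at a site was 26.2 points at 11981643, with 71.4%, 85.7%, 33.3% and 71.4%, where a library of replicate 2 matched one of replicate 1. The first site, 11981594, read 33.3%, 60%, 60% and 66.7%, and the last, 11983593, read 100%, 50%, 88.9% and 85.7%.

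Tpsg1 and Tmem273 had another arrangement, with a listed site at every second base. This spacing was known when the genes were chosen. All 19 neighbouring pairs in Tpsg1 and all 10 in Tmem273 were exactly 2 bases apart. Among neighbouring pairs up to 50 bases apart, this distance was found in 13.8% over the whole table, in 8 of 47 pairs in Cnrip1, 3 of 34 in Phf14 and 0 of 18 in Vps13b. The Tpsg1 and Tmem273 runs were the longest in the table, with 20 and 11 sites. Elsewhere no unbroken run at this spacing held more than 5 sites, a length reached by 2 runs. At this spacing neither gene can have 2 listed cytosines side by side. In the other members, 9 sites of Vps13b, 9 of Cnrip1 and 9 of Phf14 directly followed another listed position, as did 22.3% of all listed sites. The bases between the sites were not analysed here.

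The Tpsg1 run goes from 25369496 to 25369534 on chromosome 17, near the lower end of a span from 25369195 to 25374442. RefSeq gives 2 start sites on the plus strand for this gene. The run begins 223 bases after the first of these and ends 1019 bases before the other. Tpsg1 belongs to a family of related tryptase genes, and whether it shares reads with them was not tested. Along the run, levels were low at both ends and dipped in the middle, in all 4 libraries. The first site, 25369496, read 60%, 45.5%, 47.8% and 62.5%. Sites 2 to 7 had a mean of 92.3% ± 3.41, sites 8 to 11 a mean of 65.2% ± 8.92 and sites 12 to 18 a mean of 92.1% ± 2.05 (SD, n = 2 for each). In the dip the libraries stood at 78.1%, 64.9%, 54.3% and 63.4%, in each case below the same library on both sides, which ranged from 85.8% to 97.3%. These segments were drawn after the values were seen. The highest site was 25369522 at 96.0% ± 2.24, and the lowest was the last, 25369534, at 33.3%, 41.7%, 24% and 15.6% (28.7% ± 12.5; SD, n = 2 for both). The widest replicate gap, 19.5 points, was at 25369510, with 100%, 80%, 72.7% and 68.2%. Without its 2 end sites the gene's library means were 90.6%, 85.5%, 78.9% and 84.8%.

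The Tmem273 run, from 32804708 to 32804728 on chromosome 14, lay 58.7% into a span from 32785894 to 32817969, 18745 bases after the annotated start. Its levels were higher at higher positions, with no low site at the far end. The first site, 32804708, was the lowest, with 50%, 18.2%, 40% and 30%. The last, 32804728, was the highest, with 80%, 100%, 100% and 100%. In segments drawn after the values were seen, sites 1 to 4 had a mean of 58.3% ± 1.88 and sites 5 to 11 a mean of 87.3% ± 10.2 (SD, n = 2 for both). Spearman's rho of level with position over the 11 sites was 0.629, 0.907, 0.831 and 0.951 in the 4 libraries; the sites share their libraries, and the values are a description. In Tpsg1 the same measure lay between -0.184 and 0.111. The biological replicates stood at 59.6% and 56.9% over sites 1 to 4, and at 80.1% and 94.5% over sites 5 to 11. This wider gap over the later sites depends on the reading of the column names: read the other way, the replicates stood at 62.8% and 53.7%, and then at 86.0% and 88.6%. The widest gap was at 32804720, which read 75%, 75%, 90.9% and 100%.

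**Figure D2:**
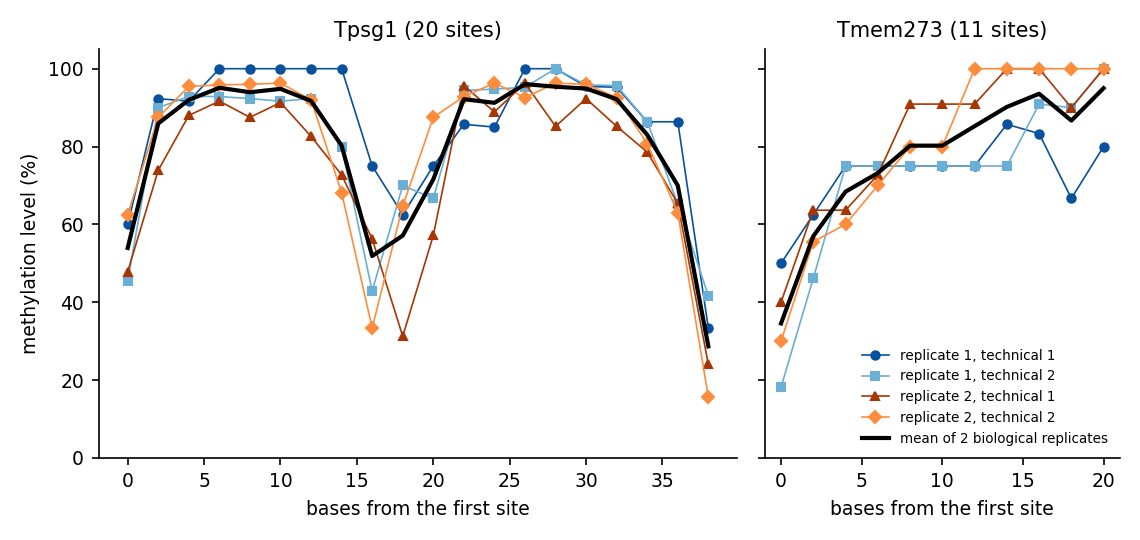
Methylation level in percent (vertical axis) against bases from the first site (horizontal axis) in Tpsg1 and Tmem273; thin lines with markers are the 4 libraries and the thick line is the mean of 2 biological replicates. Tpsg1 is low at both ends and dips in the middle in every library, while Tmem273 goes from 34.5% at the first site to 95.0% at the last.

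Neighbouring sites often had exactly the same level in all 4 libraries. Within stretches, this held for 30 of 128 neighbouring pairs of the members, with 5.58% of such pairs over the table. Leaving out pairs whose later site read 100% in every library, whatever the earlier site read, it held for 17 of 110 pairs. Over the table it then held for 5.16%. The share was highest in Vps13b, with 10 of 18 pairs (4 of 11 without pairs whose later site read 100%). The share was 12 of 47 in Cnrip1 and 7 of 34 in Phf14. It was 1 of 10 in Tmem273 and 0 of 19 in Tpsg1, where each site had its own level. An example below 100% was a block of 5 sites in Cnrip1 from 17058074 to 17058097, each at 80%, 60%, 85.7% and 80%. In Vps13b the 4 sites from 35383066 to 35383073 each read 100%, 100%, 83.3% and 100%. Since read numbers were not analysed, it is not known how many reads such blocks rest on. Whether the shares of equal pairs in the genes go with read depth or with level was not tested. The members were chosen for their level, and pairs of like level outside them were not compared. Nothing is therefore read from the contrast with the whole table.

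Biological replicates of the members were compared at each site. The 2 libraries of each replicate did not overlap with those of the other at 38 of 141 sites (27.0%), near the 30.4% of all listed sites. Replicate 1 was wholly above at 20 of them (14.2%, with 14.7% over all listed sites) and replicate 2 at 18 (12.8%, with 15.7%). The direction differed among the genes, a difference that was not tested. In Tpsg1 all 7 such sites had replicate 1 above, and in Phf14 8 of 10 had replicate 2 above. Tmem273 had 7 of 11, of which 5 had replicate 2 above; Vps13b had 2 of 21 and Cnrip1 12 of 51. With 2 replicates of a single genotype no test of these differences was possible. Reading the second number of the column names as the biological replicate, the count was 23 of 141 (16.3%, with 26.3% of all listed sites). By gene it was then 2 of 11 in Tmem273, 4 of 51 in Cnrip1, 1 of 21 in Vps13b, 9 of 38 in Phf14 and 7 of 20 in Tpsg1, so the order of the genes depends on that reading.

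**Figure D3:**
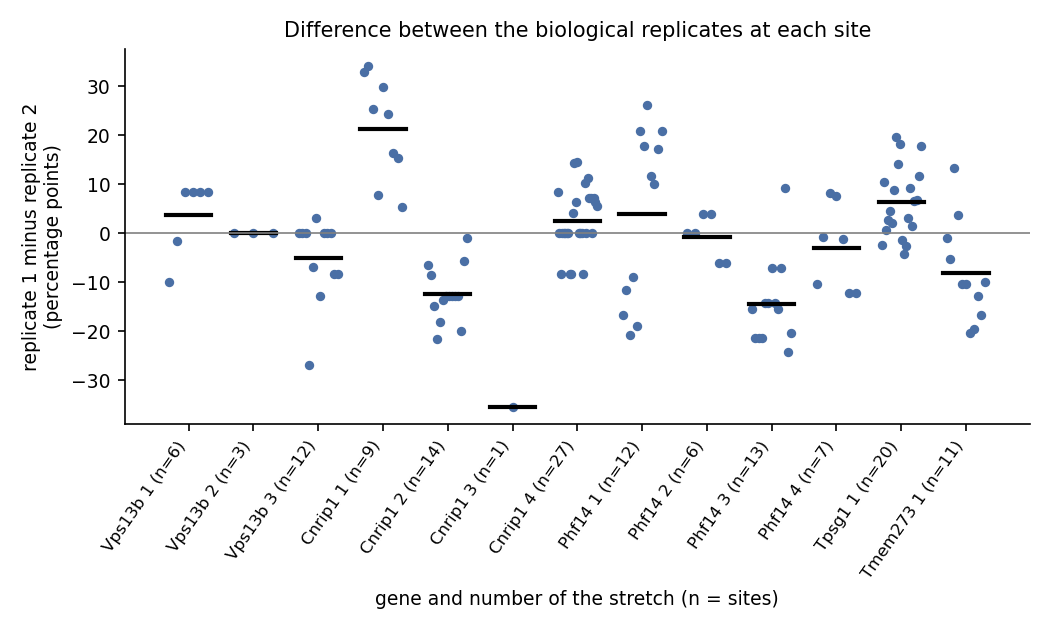
Level of biological replicate 1 minus replicate 2 in percentage points (vertical axis) for each site, grouped by stretch (horizontal axis), under the reading of the column names used here; bars are stretch means. The first Cnrip1 stretch lies at 21.2 points and the next at -12.5 points, the third Phf14 stretch at -14.5 points, Tpsg1 at 6.33 points and Tmem273 at -8.17 points.

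Under the reading used here, single-library levels of the members differed by 10.4 points on average between technical replicates and by 12.2 points between biological ones. Over all listed sites both kinds of pair differed by 13.5 points. Member sites with a mean of 75% or more differed by 8.73 and 9.78 points. All listed sites with such a mean differed by 11.8 and 11.9 points. With the column names read the other way, the members differed by 11.99 points between technical and 11.39 points between biological replicates. Member sites with a mean of 75% or more then differed by 9.79 and 9.24 points. Which kind of pair differed more in the members thus depends on the reading. Sites at 100% in every library cannot differ, and the members, chosen for their level, hold 21 of the 71 such sites. Nothing is therefore read from that contrast. By gene, under the reading used here, biological pairs ranged from 6.66 points in Vps13b to 17.2 points in Phf14.

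Over the 4 libraries, the gene nearest to Vps13b among the 48 non-member genes with 10 or more sites was Rab27b, a GTPase of granule release. Rab27b had 219 sites at 91.6%, 88.1%, 90.9% and 92.6%, at a Euclidean distance of 3.86 points from Vps13b. Anapc10, part of the ubiquitin ligase that drives anaphase, with 173 sites at 84.3%, 76.6%, 85.0% and 89.5%, was nearest to the other 4 members, at 9.29 points from Cnrip1, 12.2 from Phf14, 14.8 from Tpsg1 and 15.9 from Tmem273. These are the other genes above the threshold, so nearness follows from the rule.

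Relatives of the members were looked up in 4 lists. Over all protein-coding genes 0.438% had a listed site. Each of 4 members enters its own list through the rule, so its presence there shows nothing particular to the family. Genes other than members had sites only in the list of mast cell proteases, where there were 2, and this was not tested. Of 6 genes of the VPS13 family and other bridge-like lipid transfer proteins, Vps13b had listed sites and the other 5, among them Vps13a, Vps13c and Vps13d, had 0. Cnrip1 was the listed gene among 9 of the endocannabinoid system, and Phf14 among 22 PHD finger genes named Phf. Of 14 mast cell proteases, 3 had sites. Besides Tpsg1 these were Cma2, a chymase, with 6 sites at 39.5%, 22.4%, 22.9% and 31.4%, and the carboxypeptidase Cpa3, with 1 site at 40%, 30.4%, 18.2% and 20%. Their levels cannot be weighed against Tpsg1, which was chosen for its level in these libraries. Tpsab1 and Tpsb2, the abundant secreted tryptases of mast cells, had 0 listed sites. A gene without listed sites cannot be told from a gene with too few reads or with sites that were not selected, and a list of sites chosen by the authors on these libraries is not independent evidence about these families.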

How the data were processed

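RNA bisulfite sequencing levels were available for 4 Tet2-deficient libraries. Per the file headers, the authors deposited a methylation rate for each site, a fraction from 0 to 1, which was converted here to percent; the lowest level in the table is 10%. Builds mm10 and GRCm38 are named in the submitters' processing notes; for the aligner, site caller, coverage minimum and rule of site selection, nothing was given in the sources used. Columns were matched to titles by taking the number that follows K as the biological replicate. Sites were assigned to RefSeq gene spans of GRCm38.p6. Technical replicates were averaged first. Joining distances were 500 bases for regions and 50 bases for stretches; the latter was added after the values were seen. Levels were called equal within 1e-06 points. The members and lists were chosen with earlier results of these data known. For each member the text names its first, last, highest and lowest site, the site of widest replicate gap, and the nearest gene over 4 libraries. Functions were tested on simulated data. Wild-type comparison was planned and not run, since wild-type levels were not analysed. The tools were pandas 2.3.3 and numpy 2.4.6 under Python 3.11.15, with scipy 1.17.1 for rank correlation and matplotlib 3.10.9 for figures.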

Additional observations from a re-analysis of the deposited data

Results flagged for a closer look

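A check for a lone library apart from the rest covered 40 values (5 gene means, their mean, 13 stretches and 21 named sites). In it, 4 single sites stood out. The cut used flags about 1 in 20 values when the libraries are independent and normal. Technical replicates are not independent, the Tpsg1 and Tmem273 stretches repeat their gene means, and some sites were named for extreme values. That rate therefore does not apply here, and levels that take few distinct values give such gaps easily. At 35383064 in Vps13b, replicate 2 technical 2 read 100% and the other 3 libraries 80%. At 35394839 in Vps13b, replicate 1 technical 1 read 83.3% and the others 100%. At 17073813 in Cnrip1, replicate 2 technical 2 read 88.9% and the others 100%. At 32804728 in Tmem273, replicate 1 technical 1 read 80% and the others 100%. No gene mean or stretch stood out in this way.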

How the results depend on the processing

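With the median over sites in place of the mean, Vps13b stood at 100%, Cnrip1 at 86.9% and Tpsg1 at 90.04%, each beyond its SD; Phf14 and Tmem273 moved by less than theirs. Without sites that have another within 10 bases, Cnrip1 kept 1 site at 67.7%, Phf14 kept 1 at 76.2%, the other 3 genes kept none, and the count of sites at 75% or more in every library went from 72 to 0. That count was 27 at a level of 90%. Merging positions within 10 bases left 26 of 141 sites. Joining sites up to 50 bases gave 13 regions in place of 8. Of the 40 pairs 2 bases apart, 11 remained without Tpsg1 and Tmem273. The count of sites whose replicates did not overlap went from 38 to 23 with the column names read the other way and to 25 among sites of mean level 75% or more, and pairs of equal level from 30 to 17 without those at 100%. Leaving out a biological replicate gave 90.6% to 92.5% for Vps13b, 84.0% to 84.9% for Cnrip1, 75.9% to 80.2% for Phf14, 77.4% to 83.8% for Tpsg1, 72.7% to 80.8% for Tmem273, 81.6% to 83.0% for the mean of the genes and 84 to 95 sites at 75% or more. Tmem273 thus stood under 75% in replicate 1. With 2 replicates such shifts are below the SD by construction. The other reading changed the SD to 1.84 in Vps13b, 3.04 in Cnrip1, 1.67 in Phf14, 0.280 in Tpsg1 and 1.13 in Tmem273. Other settings moved values by less than the SD, or counts by less than 1.5 times. No paired analysis was possible because only Tet2-deficient libraries have levels in the table used. The limits set by depth are not known, since no read numbers were analysed.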

Other observations

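The Tpsg1 span holds no listed site beyond the run described above. The nearest listed site past its upper end, 528 bases away at 25374970 on chromosome 17, lies in the span of Cacna1h (25374285 to 25436334), a calcium channel subunit gene that overlaps the end of the Tpsg1 span, and is the single listed site of that gene. It read 47.1%, 53.3%, 17.6% and 25% in the 4 libraries, a mean of 35.8%, and both replicate 1 libraries were above both replicate 2 libraries. Below the limit of 10 sites per gene, Rsph3b was the only other gene with a mean of 75% or more, with 1 site at 98.8%.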
